A study of Mus musculus with 11 samples.

Results

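Mitosis genes were followed across 11 mouse mammary tumours as a readout of how much division-related RNA each tumour held. The set is a list of 32 genes with known roles in mitosis, matched by annotated gene symbol, with the probe of highest mean taken for each gene. Of the 32 genes, 30 had a named probe on the array and 22 were bright enough to be tested, out of 19057 genes with a probe and 14726 tested features. The probes of the other 8 genes (Ccnb2, Ccna2, Bub1, Ttk, Cenpe, Cenpf, Ube2c and Racgap1) lay below the brightness limit, and Ccnb1 and Mki67 had no named probe. The list is one of known roles, drawn up with earlier results of these data known. The probe of each gene and the 22 tested genes were chosen by mean intensity over all arrays, without regard to genotype. For Tpx2 that mean passed the limit through tumours of a single genotype, as given below.

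The PyMT/SIRT6 group held 5 tumours from female mice that carry the polyoma middle T transgene and also the Sirt6BAC allele, an added Sirt6 gene that overexpresses the SIRT6 protein. The PyMT group held 6 tumours from females with the same transgene and without that allele. All mice were killed at 12 weeks of age, with no drug or other treatment named. Middle T is an oncoprotein from a mouse virus that gives rise to mammary tumours within weeks, so every tumour compared here was driven by it. The labels name neither the promoter of the transgene nor the cells in which the added Sirt6 is active. They do not say whether each tumour came from a different mouse, so the tests measure the spread between these samples. The comparison asks whether tumours with added Sirt6 differ in mitotic gene expression from tumours without it.

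Mitosis is the stage at which duplicated chromosomes are attached to a spindle and pulled apart, after which the cell splits. Cyclin B with the kinase Cdk1 drives entry, Aurora and Polo kinases and motor proteins build the spindle, the checkpoint holds cells until kinetochores are attached, and Cdc20 then triggers anaphase. RNA of most of these genes is made mainly in late S phase, G2 and mitosis, so in whole tissue their level is widely read as a measure of dividing cells. In bulk tumour RNA, fewer dividing cells and less mitotic RNA per dividing cell cannot be told apart.

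A shared feature of these genes is in their promoters. The cell cycle homology region (CHR), written TTTGAA or TTTAAA, is bound by the MuvB complex and is known from many late cell cycle genes, often next to CCAAT boxes bound by NF-Y. The stretch from 120 bases before to 30 bases from the start of transcription is shown for the 5 tested genes that followed the other mitosis genes most closely across these tumours and had a promoter window, and for Top2a, the gene with the largest genotype difference. Capitals mark either form of the CHR and the CCAAT box; a match on the opposite strand reads TTCAAA for the CHR and ATTGG for the box. The sequences are from RefSeq, build GRCm38.p6, 5′ to 3′ along each gene.
Ndc80, chr17:71526828-71526977, minus strand: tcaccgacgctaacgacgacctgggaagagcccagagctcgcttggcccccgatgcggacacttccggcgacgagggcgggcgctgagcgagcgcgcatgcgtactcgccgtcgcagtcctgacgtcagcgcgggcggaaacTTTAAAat
Aurka, chr2:172370541-172370690, minus strand: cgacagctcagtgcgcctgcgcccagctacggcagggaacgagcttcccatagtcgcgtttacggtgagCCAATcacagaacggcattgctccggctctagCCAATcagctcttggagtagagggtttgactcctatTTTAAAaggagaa
Cdc20, chr4:118437314-118437463, minus strand: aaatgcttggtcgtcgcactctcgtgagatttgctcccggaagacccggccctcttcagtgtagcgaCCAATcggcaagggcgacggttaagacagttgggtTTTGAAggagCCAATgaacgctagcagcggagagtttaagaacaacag
Anln, chr9:22389177-22389326, minus strand: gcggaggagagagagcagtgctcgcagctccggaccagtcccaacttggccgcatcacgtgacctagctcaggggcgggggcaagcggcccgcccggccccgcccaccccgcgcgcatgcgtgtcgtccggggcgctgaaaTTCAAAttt
Cdk1, chr10:69352883-69353032, minus strand: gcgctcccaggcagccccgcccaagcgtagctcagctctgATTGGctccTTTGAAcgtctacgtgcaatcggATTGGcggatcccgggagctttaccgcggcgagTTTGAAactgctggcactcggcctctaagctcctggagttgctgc
Top2a, chr11:99024160-99024309, minus strand: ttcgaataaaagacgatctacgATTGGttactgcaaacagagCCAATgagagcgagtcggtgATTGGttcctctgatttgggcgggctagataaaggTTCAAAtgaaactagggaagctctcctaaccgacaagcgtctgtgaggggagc

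The Cdk1 promoter held TTTGAA at -71 and again at -15, counting the first transcribed base as 1 and giving the first base of each match, with CCAAT on the opposite strand at -80 and -48. The Cdc20 promoter held TTTGAA at -18 between CCAAT boxes at -53 and -8. The Aurka stretch showed CCAAT at -51 and -19 and TTTAAA at 18, while in Ndc80 and Anln the matches lay only after the start and no CCAAT was found in the window. Over the whole window of 250 bases before and 50 after the start, searched on both strands, TTTGAA or TTTAAA was found in 23 of the 27 mitosis genes with a window (85.2%), against 30.6% of all 27025 genes. CCAAT was found in 20 of 27 (74.1%), against 41.1% of all genes, and a CHR together with CCAAT in 19 of 27 (70.4%), against 12.2%. Among the 18 tested mitosis genes with a window, 11 held both (61.1%), against 9.41% of the 9177 tested genes with a window. A match is a description of letters and not a measured binding site.

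Before the results, the samples were checked. On all 3 probes of Sirt6 the genotypes did not overlap, with the PyMT/SIRT6 tumours higher. On its brightest probe the log2 intensity was 8.49, 8.64, 8.31, 8.19 and 8.23 in PyMT/SIRT6 tumours 1 to 5, against 7.82, 7.67, 7.78, 7.78, 7.64 and 7.88 in PyMT tumours 1 to 6, a difference of 0.61 (exact two-sided permutation p = 0.00216, the smallest that 462 splits of the arrays allow). Luminal epithelial markers were bright in every tumour, with Krt8 between 12.23 and 13.40 and Cldn3 between 11.14 and 12.40, while the probe of Epcam stayed below the limit. Skeletal muscle RNA set some tumours apart. The mean log2 intensity of 19 muscle genes was 9.82, 7.70, 7.41, 10.46 and 11.27 in PyMT/SIRT6 tumours 1 to 5, against 7.41, 8.42, 7.56, 7.79, 11.33 and 8.36 in PyMT tumours 1 to 6. Thus 3 PyMT/SIRT6 tumours and 1 PyMT tumour lay above 9. All values are log2 of the deposited probe intensity, on which the dimmest tested feature averaged 7.31, and a difference of 1 is a doubling of intensity.

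The level of the mitosis genes differed between tumours, the genotypes overlapped, and the spread was wider among PyMT than among PyMT/SIRT6 tumours. The mean log2 intensity of the 22 genes was 9.05, 8.79, 8.97, 8.89 and 8.73 in PyMT/SIRT6 tumours 1 to 5, against 9.28, 8.95, 9.21, 8.94, 8.65 and 8.79 in PyMT tumours 1 to 6. The highest and the lowest tumour were both PyMT, 0.64 apart on the log2 scale, or 1.56-fold, and all PyMT/SIRT6 values lay between them. The means were 8.89 ± 0.13 in PyMT/SIRT6 tumours and 8.97 ± 0.24 in PyMT tumours (SD, n = 5 and 6), a difference of -0.08 that is smaller than either SD.

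The order of tumours was shared by many of the genes. PyMT tumour 1 had the highest value for 13 of the 22 genes and PyMT tumour 3 for 6 more. PyMT tumour 5 was lowest for 9 and PyMT/SIRT6 tumour 5 for 7. PyMT tumour 6 was seldom the very lowest, for 3 genes, yet it was among the lowest 3 tumours for 16 genes. PyMT/SIRT6 tumour 1, the third highest by mean, was above the gene's own average for 17 of 22 genes, and PyMT/SIRT6 tumour 5 for 2.

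**Figure D1:**
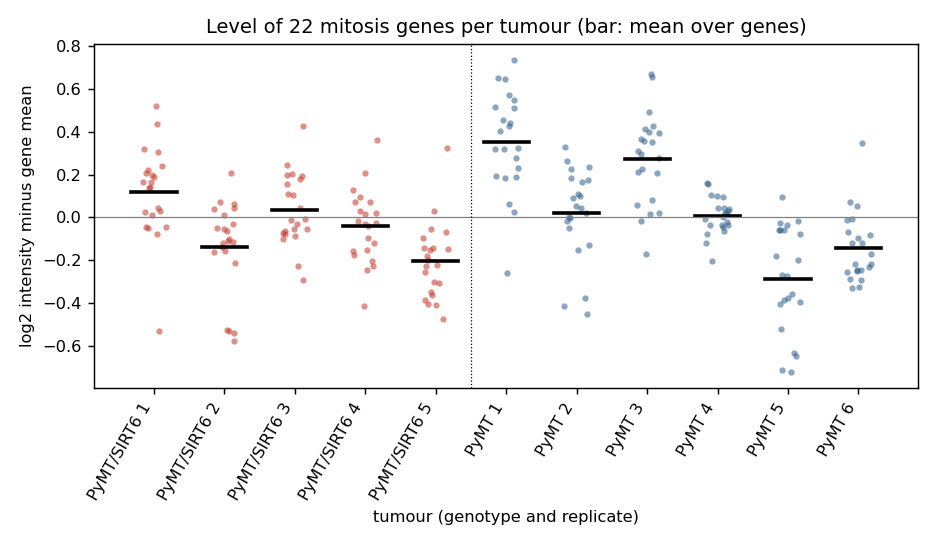
Level of the 22 tested mitosis genes in each tumour, as log2 intensity minus the gene's mean over 11 arrays. Each point is a gene and each bar the mean over genes, from 0.35 in PyMT tumour 1 to -0.29 in PyMT tumour 5, with the 5 PyMT/SIRT6 tumours between 0.12 and -0.20.

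No mitosis gene passed the test between genotypes. In limma's fit over all 14726 features with Benjamini-Hochberg adjustment, 0 of 22 were called higher and 0 lower, where 0.0136% of all features were called higher and 0% lower. At an unadjusted p under 0.05, 0 of 22 were lower and 0 higher, where 2.39% of all features were lower and 2.04% higher. The estimates lay below 0 for 17 of the 22 genes, where 53.1% of all features did, and their median was -0.11, against -0.01 over all features. These genes vary together, so the 17 are not 17 separate observations. Tpx2, among them, passed the brightness limit only through the PyMT group. For 0 of 22 genes did all tumours of one genotype lie beyond all of the other, as 0.489% of all features did. The smallest adjusted p of any mitosis gene was 0.983.

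**Figure D2:**
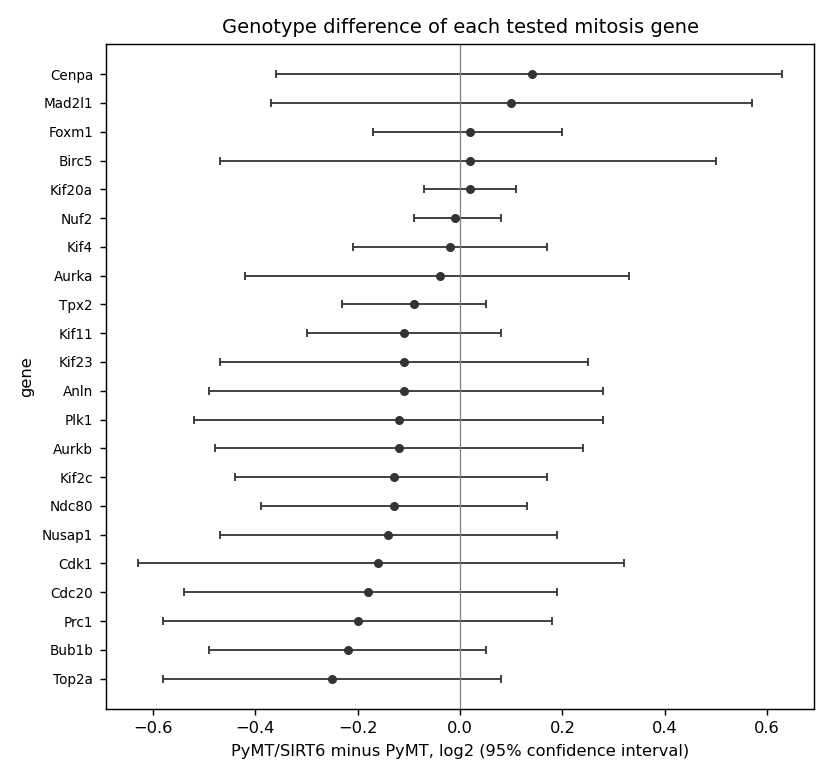
Difference in log2 intensity, PyMT/SIRT6 minus PyMT, for the 22 tested mitosis genes, with limma's 95% confidence interval. Every interval includes 0, and the estimates run from 0.14 for Cenpa to -0.25 for Top2a.

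Genes of mitotic entry came in 3 tested members of 6. Cdk1, the kinase that starts mitosis, had 9.66, 8.90, 9.48, 9.51 and 9.21 in PyMT/SIRT6 tumours 1 to 5, against 9.95, 9.31, 10.09, 9.48, 8.73 and 9.49 in PyMT tumours 1 to 6. Its lowest and highest tumours were both PyMT and 2.55-fold apart, the widest span of any mitosis gene, and the genotypes overlapped. The difference was -0.16 ± 0.22 (SE) with a 95% interval of -0.63 to 0.32 (limma adjusted p = 0.983). It was 0.13 among the last 5 arrays deposited, with PyMT/SIRT6 tumours 4 and 5 only. Without the tumours high in muscle, with PyMT/SIRT6 tumours 2 and 3 only, it was -0.47.

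Plk1, the Polo kinase that acts in centrosome maturation and spindle assembly, had 9.45, 9.52, 9.30, 8.90 and 9.06 in PyMT/SIRT6 tumours, against 9.96, 9.64, 9.37, 9.28, 8.94 and 9.02 in PyMT tumours. PyMT/SIRT6 tumour 4 was its lowest and PyMT tumour 1 its highest, and the groups overlapped. The difference was -0.12, with an interval of -0.52 to 0.28, and without PyMT tumour 1 it was 0.00. Foxm1, a transcription factor of late cell cycle genes, varied less: 8.12, 7.95, 7.79, 7.85 and 7.73 in PyMT/SIRT6 tumours, against 8.06, 7.90, 7.71, 7.98, 7.86 and 7.71 in PyMT tumours. Its highest tumour was PyMT/SIRT6 tumour 1, and its difference was 0.02 (-0.17 to 0.20). The probes of Ccnb2 and Ccna2, the cyclins B2 and A2, averaged 7.23 and 7.26 over all arrays and spanned 0.19 and 0.18, all below or around the limit.

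All 5 spindle genes were tested, with estimates between -0.14 and -0.04. Aurka, the Aurora kinase of centrosomes and spindle poles, had 9.34, 8.81, 9.13, 8.98 and 8.72 in PyMT/SIRT6 tumours, against 9.46, 8.87, 9.42, 9.05, 8.50 and 8.94 in PyMT tumours. PyMT tumours again held both the highest and the lowest value, and the difference was -0.04 (-0.42 to 0.33). Kif11, the kinesin that pushes spindle poles apart, had 8.0, 7.87, 7.87, 7.99 and 7.83 in PyMT/SIRT6 tumours, against 8.16, 7.92, 8.32, 7.95, 7.91 and 7.85 in PyMT tumours. The PyMT/SIRT6 values were close together, at or below 8.0, and the excess in PyMT came from tumours 1 and 3, and the difference was -0.11 ± 0.09 (exact permutation p = 0.275, limma adjusted p = 0.983).

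Tpx2, which activates Aurora A on spindle microtubules, was dim, at 7.25, 7.27, 7.25, 7.34 and 7.27 in PyMT/SIRT6 tumours, against 7.60, 7.49, 7.34, 7.37, 7.29 and 7.11 in PyMT tumours. Its mean of 7.33 was just inside the limit of 7.31, as was Kif20a at 7.33, while Ttk and Cenpf, at 7.29, were just outside. By genotype Tpx2 averaged 7.28 in PyMT/SIRT6 tumours, below the limit, and 7.37 in PyMT tumours. It was therefore tested only because of its level in the PyMT group, and its difference carries little weight. The Tpx2 difference was -0.09 (-0.23 to 0.05), and -0.24 when background was subtracted with normexp (offset 16). Nusap1, a microtubule-bundling protein, and Kif2c, a kinesin that takes microtubules apart at kinetochores, differed by -0.14 (-0.47 to 0.19) and -0.13 (-0.44 to 0.17).

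The 2 tested checkpoint genes had estimates of opposite sign on their brightest probes. Bub1b, which encodes the checkpoint kinase-like protein BubR1, had 8.79, 8.79, 8.83, 8.74 and 8.43 in PyMT/SIRT6 tumours, against 9.16, 9.10, 9.05, 9.00, 8.81 and 8.51 in PyMT tumours. Its top 4 tumours were all PyMT, and the groups overlapped through PyMT tumours 5 and 6. The difference was -0.22 ± 0.13 (SE), with an interval of -0.49 to 0.05, and Bub1b had the smallest p of the set (exact permutation p = 0.119, limma adjusted p = 0.983). The second Bub1b probe above the limit, at a mean of 7.76, had r = 0.66 with the first and a difference of -0.12. The mean of both probes differed by -0.17. Mad2l1, the checkpoint protein that binds and restrains Cdc20, averaged 9.63 ± 0.40 in PyMT/SIRT6 tumours and 9.53 ± 0.42 in PyMT tumours (SD), with PyMT tumour 1 highest and PyMT tumour 5 lowest. Here the overlap was almost complete, with a difference of 0.10 (-0.37 to 0.57). The second Mad2l1 probe above the limit, at a mean of 7.76, had r = 0.86 with the first and a difference of -0.02.

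Among kinetochore genes, Cenpa, the histone H3 variant of centromeres, was the brightest probe of the set, at 12.49, 11.44, 12.17, 12.33 and 11.79 in PyMT/SIRT6 tumours, against 12.16, 11.52, 12.46, 12.01, 11.25 and 12.04 in PyMT tumours. It had the largest estimate above 0, 0.14 ± 0.23 (-0.36 to 0.63). The second Cenpa probe above the limit, dim at a mean of 7.41, had r = 0.33 with the first and a difference of 0.00. Ndc80 and Nuf2, partners in the complex that holds microtubules at the kinetochore, differed by -0.13 (-0.39 to 0.13) and -0.01 (-0.09 to 0.08). Nuf2 was dim, with a span over all 11 tumours of 0.19, so its narrow interval is that of a probe near the limit.

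Cdc20, the activator of the anaphase-promoting complex, had 10.48, 10.30, 10.63, 10.19 and 10.09 in PyMT/SIRT6 tumours, against 10.89, 10.62, 10.86, 10.53, 10.05 and 10.15 in PyMT tumours. PyMT tumours 1 and 3 were above every PyMT/SIRT6 tumour and PyMT tumour 5 was below all of them. The difference was -0.18 ± 0.17 (-0.54 to 0.19), or -0.10 without PyMT tumour 1. All 4 probes of Cdc20 passed the limit, had r between 0.79 and 0.88 with the brightest over 11 arrays, and gave differences between -0.18 and -0.08.

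Genes of the chromosomal passenger complex and cytokinesis had estimates between -0.20 and 0.02. Aurkb, the passenger complex kinase, had 8.60, 8.25, 8.51, 8.23 and 8.10 in PyMT/SIRT6 tumours, against 9.05, 8.46, 8.68, 8.37, 8.05 and 8.15 in PyMT tumours, a difference of -0.12 (-0.48 to 0.24) that was 0.00 without PyMT tumour 1. Birc5 (survivin), its partner in that complex, had 10.89, 9.93, 10.65, 10.55 and 10.30 in PyMT/SIRT6 tumours, against 10.96, 10.08, 10.75, 10.25, 9.82 and 10.80 in PyMT tumours, a difference of 0.02 (-0.47 to 0.50). Without the tumours high in muscle, again with PyMT/SIRT6 tumours 2 and 3 only, the Birc5 difference was -0.28. Neither gene separated the genotypes, and they ranked some tumours differently: PyMT tumour 6 was among the highest 3 for Birc5 and among the lowest 3 for Aurkb. The 3 probes of Birc5 followed each other closely (r of 0.97 and 0.99 with the brightest).

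Prc1, which bundles microtubules of the central spindle, had 10.76, 10.66, 10.37, 10.44 and 10.21 in PyMT/SIRT6 tumours, against 11.33, 10.77, 10.82, 10.52, 10.40 and 10.27 in PyMT tumours. The top 3 tumours were PyMT, and the difference was -0.20 ± 0.18 (-0.58 to 0.18), or -0.07 without PyMT tumour 1. Anln, the anillin scaffold of the cleavage furrow, and Kif20a, a kinesin of the central spindle, differed by -0.11 (-0.49 to 0.28) and 0.02 (-0.07 to 0.11).

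Kif23, the kinesin of the centralspindlin complex, depended on the probe. Its brightest probe averaged 9.38 and had r = 0.00 with each of its other 2 probes above the limit. Those other probes, at 7.90 and 7.82, had r of 0.81 and 0.67 with the mean of the other mitosis genes, while the brightest had -0.09. The brightest probe gave a difference of -0.11 and the others -0.06 and -0.11, so the genotype estimate was similar on all of them.

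Top2a, the topoisomerase that untangles chromosomes before they separate, had the largest difference of the set. It had 8.84, 8.66, 8.36, 8.53 and 8.18 in PyMT/SIRT6 tumours, against 9.22, 8.74, 8.96, 8.65, 8.59 and 8.42 in PyMT tumours. PyMT tumours 1 and 3 were the highest and PyMT/SIRT6 tumours 3 and 5 the lowest, with the rest interleaved. The difference was -0.25 ± 0.15 (SE), or 0.841-fold with an interval of 0.67 to 1.06 (exact permutation p = 0.175, limma adjusted p = 0.983). Its second probe above the limit, at a mean of 7.41, had r = 0.37 with the first and a difference of 0.03, and the mean of its probes differed by -0.07. Without PyMT tumour 1 the difference of the first probe was -0.16. Kif4, a chromosome-bound kinesin, differed by -0.02 (-0.21 to 0.17).

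**Figure D3:**
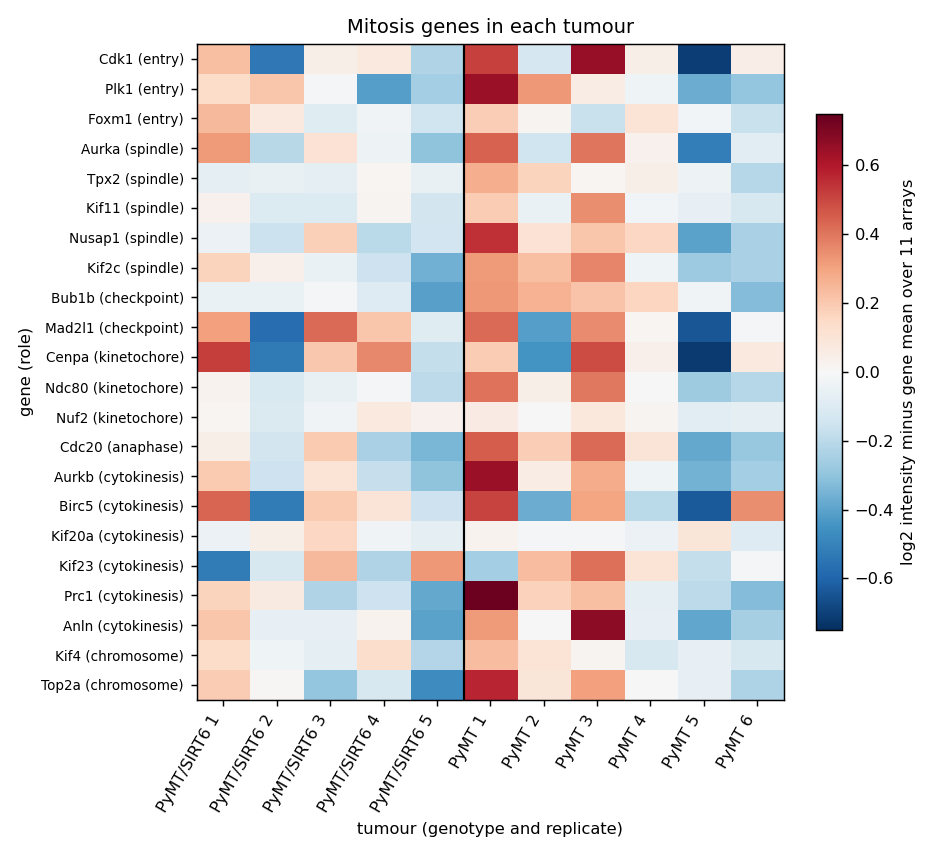
Log2 intensity of the 22 tested mitosis genes minus each gene's mean over 11 arrays, with genes in rows by role and the 5 PyMT/SIRT6 tumours left of the 6 PyMT tumours. PyMT tumours 1 and 3 are above average for 21 and 20 of the genes, and PyMT tumour 5 for 1.

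Levels also differed on average by order of deposit, with single tumours of both parts close together or overlapping. The labels name no slide, scan or batch, and replicate numbers follow accession order, so the first 6 arrays (tumours 1 to 3 of each genotype) were set against the last 5. The mean of the 22 genes was 8.94 in PyMT/SIRT6 and 9.15 in PyMT tumours among the first 6, and 8.81 in PyMT/SIRT6 and 8.79 in PyMT tumours among the last 5. Among PyMT/SIRT6 tumours the parts overlapped, with tumour 2 of the first 6 at 8.79 and tumour 4 of the last 5 at 8.89. PyMT tumours 2 and 4, also 1 from each part, were at 8.95 and 8.94. In both genotypes 16 of 22 genes were on average higher in the first 6, where 31.4% of all features were. As the genes vary together, the 16 are not separate observations. With order of deposit as a block in limma's fit, 0 genes passed after adjustment, and 2 of 22 were lower at an unadjusted p under 0.05, where 3.05% of all features were. These were Bub1b, at -0.25 ± 0.10, and Top2a, at -0.29 ± 0.12 (SE), each with a limma adjusted p of 0.834. Among the first 6 arrays alone the median difference of the 22 genes was -0.24, and among the last 5 alone 0.01. The last 5 held only PyMT/SIRT6 tumours 4 and 5 of that genotype. Both of these and PyMT tumour 5 had muscle means above 9, as did only PyMT/SIRT6 tumour 1 among the first 6. Order of deposit and muscle RNA therefore cannot be fully told apart here. What order of deposit stands for was not tested.

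The mitosis genes moved together across tumours. Over the 231 pairs of tested genes the median Pearson r across 11 arrays was 0.58, and 135 pairs (58.4%) were above 0.5. Over all 108420175 pairs of tested features the median was 0.00 and 10.3% were above 0.5. With the genotype means taken out the median among mitosis genes was 0.59. A single principal component held 64% of their variance and the next 20.3%. Genes were centred but not scaled for this, so genes with a wide range weigh more and dim genes little. These correlations are descriptions over the same 11 arrays, which share tissue make-up and order of deposit.

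Aurkb followed the mean of the other 21 genes most closely, at r = 0.96, then Ndc80 at 0.95, Aurka at 0.94, Cdc20 at 0.92 and Anln at 0.90. At the other end were Foxm1 at 0.33, Kif20a at -0.03 and Kif23, on its brightest probe, at -0.09. Prc1 and Top2a were the closest pair (0.96) and Foxm1 and Kif23 the most opposed (-0.72).

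**Figure D4:**
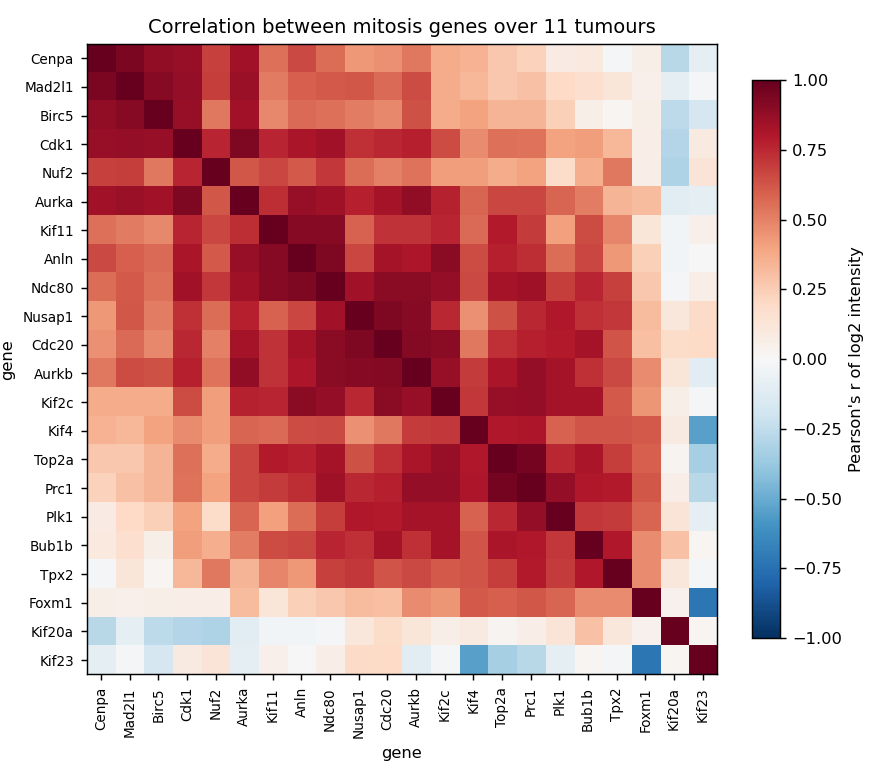
Pearson's r of log2 intensity over 11 tumours between the 22 tested mitosis genes. The order of genes was chosen after the values were seen; Cenpa, Mad2l1, Birc5 and Cdk1 at the top left have r between 0.87 and 0.94 with each other, and Kif20a and Kif23 at the end follow few of the others.

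Since Mki67 had no named probe, Top2a was used as the single-gene measure of proliferation. Of the other 21 genes, 15 had r above 0.5 with Top2a, where 9.43% of all features did. Without PyMT tumour 1 and PyMT/SIRT6 tumour 5, the farthest from the median of Top2a, 10 of 21 had r above 0.5, where 9.29% of all features did. For 13 of 21, over all arrays, r was above 0 with a permutation p under 0.05, where 4.88% of all features were, and after adjustment over 14725 features 0 of 21 passed, as did 0% of all features. Prc1 had r = 0.96 (permutation p = 1e-05, the smallest 100000 permutations can give, adjusted p = 0.0736) and rho = 0.97 (permutation p = 1e-05, adjusted p = 0.147). Without those tumours r for Prc1 was 0.93. Kif2c had r = 0.87 (permutation p = 2.8e-04, adjusted p = 0.256) and rho = 0.90 (permutation p = 3.9e-04, adjusted p = 0.304), and r = 0.83 without those tumours. Others rested more on them: r was 0.60 for Foxm1 and 0.33 without them, 0.64 and 0.34 for Nusap1, and 0.67 and 0.45 for Aurka.

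Within the set, some genes kept closer company than others. Cenpa, Mad2l1, Birc5 and Cdk1 had a median r of 0.89 over their 6 pairs, and Foxm1, Tpx2, Bub1b, Plk1, Prc1 and Top2a a median of 0.71 over 15 pairs, while the 24 pairs between these groups had a median of 0.21. The groups were picked after the values were seen and carry no test. Against its own average, the Cenpa group was 0.37, -0.54, 0.22, 0.18 and -0.16 in PyMT/SIRT6 tumours 1 to 5, and 0.41, -0.34, 0.45, -0.02, -0.68 and 0.11 in PyMT tumours 1 to 6. The Top2a group was 0.10, 0.04, -0.12, -0.13 and -0.29 in PyMT/SIRT6 tumours, and 0.45, 0.18, 0.11, 0.03, -0.12 and -0.26 in PyMT tumours. The groups parted most in PyMT/SIRT6 tumour 2 and PyMT tumours 2 and 5, where the Cenpa group was far below its average, and in PyMT tumour 6, where it was slightly above.

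Other cell division genes followed the same order of tumours. The mean of 34 tested S phase genes (of 40 listed), which copy DNA, had r = 0.99 and rho = 0.99 with the mean of the mitosis genes over 11 arrays, and r = 0.97 without PyMT tumours 1 and 5. Further genes of mitotic entry and exit (23 tested of 32) had r = 0.97 and other chromosome genes (15 of 17), such as Ncaph and Lmnb1, 0.96. Other kinetochore genes (26 of 31) had 0.96 and other spindle genes (16 of 24) 0.89. Genes of G1 and of cell cycle brakes (21 of 22), such as Ccnd2 and Rbl2, followed less closely, at 0.58, or 0.38 without PyMT tumours 3 and 6.

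No gene of these lists passed limma's adjusted threshold between genotypes. In each of the 6 lists 0 genes were called and 0 had an unadjusted p under 0.05, where 2.39% of all features were lower and 2.04% higher. Where 53.1% of all features lay below 0, estimates below 0 stood at 24 of 34 S phase genes (median -0.05), 17 of 23 entry and exit genes (median -0.04), 10 of 15 other chromosome genes (median -0.04), 14 of 26 kinetochore genes (median -0.01), 11 of 16 spindle genes (median -0.04) and 14 of 21 G1 and brake genes (median -0.04). The smallest p was that of Gins3, a part of the replicative helicase, at -0.05 ± 0.02 (SE). Lmnb1, which encodes lamin B1, and Ccnd2, the cyclin D2 of G1, had the largest differences among the genes named here from these lists, at -0.24 ± 0.16 and -0.24 ± 0.17. Cdc23, a subunit of the anaphase-promoting complex, was at -0.18 ± 0.09, and Ckap5, a microtubule polymerase, at -0.15 ± 0.08. Bub3, a checkpoint protein, was at -0.13 ± 0.11 and the helicase gene Mcm3 at -0.11 ± 0.06. Above 0 were Dut, which keeps uracil out of DNA, at 0.09 ± 0.05 and Stmn1, a microtubule-destabilising protein, at 0.05 ± 0.05. All of these had a limma adjusted p of 0.983.

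**Figure D5:**
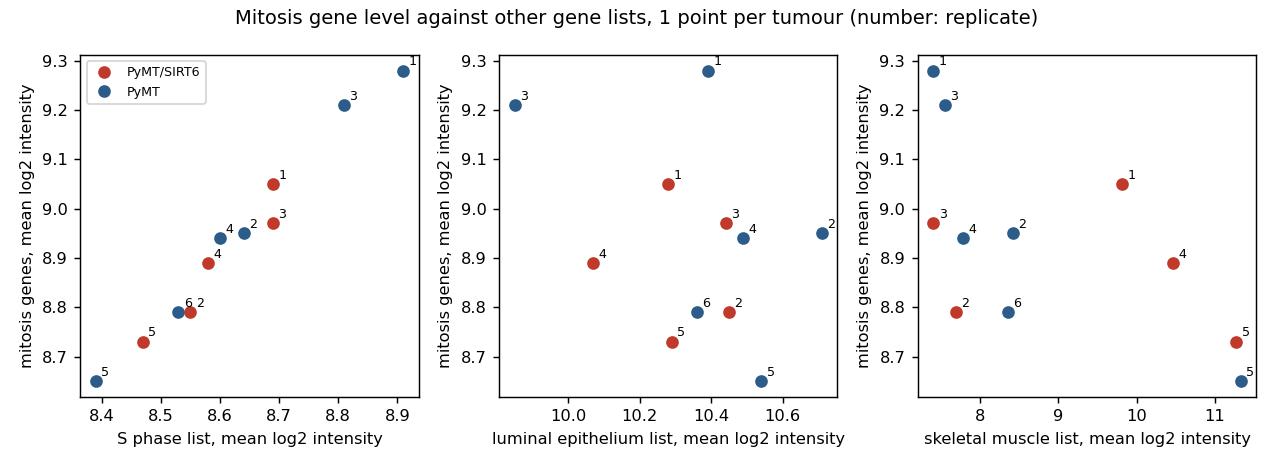
Mean log2 intensity of the 22 mitosis genes (vertical axes) against that of 34 S phase genes, 12 luminal epithelial genes and 19 skeletal muscle genes (horizontal axes), 1 point per tumour, red for PyMT/SIRT6 and blue for PyMT, numbered by replicate. S phase and mitosis genes rank the tumours almost alike (rho = 0.99), the luminal list does not, and PyMT/SIRT6 tumour 5 and PyMT tumour 5 join the highest muscle means with the lowest mitosis means.

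Levels of other cell types moved with the mitosis genes in some tumours. The lowest 2 tumours by mitosis genes, PyMT tumour 5 and PyMT/SIRT6 tumour 5, had the highest muscle means, 11.33 and 11.27, while PyMT/SIRT6 tumours 1 and 4, also high in muscle at 9.82 and 10.46, ranked 3 and 7 of 11. Over 11 arrays the muscle list had r = -0.61 and rho = -0.71 with the mitosis genes. Without PyMT tumour 5 and PyMT/SIRT6 tumour 5 its r was -0.27. Leaving out the 4 tumours above 9 kept only PyMT/SIRT6 tumours 2 and 3, against PyMT tumours 1 to 4 and 6. The median genotype difference of the mitosis genes was then -0.15, with 21 of 22 below 0, where 50.9% of all features were. After adjustment 0 of 22 passed, as did 0 of all 14726 features. With the muscle mean as a covariate the median difference was -0.03, and with the luminal mean -0.14. The 3 tested erythroid genes were highest in PyMT tumours 1 and 3, at 12.45 and 11.79, the highest by mitosis genes, against at most 11.00 elsewhere. Their mean had r = 0.54 and rho = 0.29 with the mitosis genes, and r = -0.29 without those 2 tumours. The T and NK cell list (8 tested of 12, with Cd8a below the limit) ran against the mitosis genes, at r = -0.70 and rho = -0.57. Its mean was 8.0 to 8.23 in PyMT/SIRT6 tumours, against 7.82 to 8.14 in PyMT tumours. The luminal list had r = -0.37, or -0.09 without PyMT tumour 3 and PyMT/SIRT6 tumour 4. The adipocyte list (7 tested of 11, with Fabp4 and Plin1 below the limit) had r = -0.58 and rho = -0.58, and the fibroblast list (11 of 14) r = -0.51 and rho = -0.59. The basal and myoepithelial list (11 of 12) had r = 0.33 and rho = 0.30 with the mitosis genes. Its estimates were below 0 for 11 of 11 genes, where 53.1% of all features were. Of these genes 4 were lower at an unadjusted p under 0.05, where 2.39% of all features were, and 0 passed after adjustment. The basal mean was 8.87 ± 0.13 in PyMT/SIRT6 tumours and 9.21 ± 0.25 in PyMT tumours (SD). Also below 0 were 9 of 12 luminal, 5 of 7 adipocyte, 8 of 11 endothelial, 3 of 3 erythroid and 1 of 1 B and plasma cell genes. Above 0 were 8 of 8 T and NK, 11 of 12 macrophage, 10 of 11 fibroblast, 16 of 19 muscle and 6 of 9 milk genes. Of all 14726 features, 6910 were above 0. The muscle list had the largest median difference of these lists, 1.17, with means of 9.33 ± 1.71 in PyMT/SIRT6 and 8.48 ± 1.46 in PyMT tumours (SD). Of the T and NK, macrophage and milk genes 3, 1 and 3 were higher at an unadjusted p under 0.05. Of the fibroblast and muscle genes 0 were, where 2.04% of all features were higher. Genes of a list can vary together and are not separate observations. Apart from the muscle and luminal values given here and the milk covariate, the part of other cell types in the mitosis gene levels was not tested.

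Across the whole array, the gene whose pattern was most like the mean of the mitosis genes was Cenpn, a centromere protein, at r = 0.98 over 11 arrays with genotype means taken out, among 11346 named genes outside the set. It had 8.32, 8.15, 8.28, 8.13 and 8.09 in PyMT/SIRT6 tumours, against 8.60, 8.26, 8.53, 8.33, 8.0 and 8.11 in PyMT tumours. The next were Ckap2, a spindle protein (0.96), Pcsk6, a proprotein convertase (0.96), Mcm10, a replication factor (0.95), the helicase gene Blm (0.95), Parpbp (0.94), the mitotic kinase gene Pbk (0.93), Sgo1, which guards centromeric cohesion (0.93), Selenoi (0.93) and Senp7 (0.92). Of these 10 genes 5 stood in the division lists above, and Pcsk6 had the largest genotype difference among the 10, at -0.40. It had 8.62, 8.47, 8.68, 8.37 and 8.35 in PyMT/SIRT6 tumours, against 9.47, 8.78, 9.34, 8.82, 8.38 and 8.60 in PyMT tumours. The genotypes thus overlapped for Pcsk6, and 0 of 14726 features were called lower in limma's fit.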

How the data were processed

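RNA of 11 mammary tumours was measured on Illumina Mouse WG-6 v2.0 arrays, 1 array per tumour, with groups taken from the genotype labels. The authors deposited probe intensities on a linear scale, 45281 per array; their background treatment and normalization, not given in the sources used here, could not be checked. Sorted arrays differed by at most 1.08% and array medians lay between 157.5 and 157.6, so the deposited intensities already shared their distribution and were only put on the log2 scale. Without background subtraction, differences of dim probes understate those of RNA. The number of arrays limits the precision.

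Probes were named from the platform annotation, in which 34885 had a single symbol, 18 several and 10378 none. A gene took its probe of highest mean, giving 29453 features with the unnamed probes, and the lower 50% by mean were left out (limit 7.31 on the log2 scale), leaving 14726, of which 11368 had a symbol. The genotype difference was fitted by limma 3.58.1 under R 4.3.3 (lmFit, eBayes with an intensity trend, Benjamini-Hochberg adjustment over all 14726 features, threshold 0.05), tested on simulated data first. Changes are PyMT/SIRT6 minus PyMT with limma's SE and 95% interval. For single genes all 462 splits of the arrays gave an exact permutation p, two-sided. Correlations with Top2a used 100000 permutations and adjustment over all other features, in place of a planned adjustment over the members alone. Promoter windows came from RefSeq, GRCm38.p6.

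The members and all gene lists were chosen with earlier results of these data known. Described tumour by tumour were Top2a, Cdk1, Plk1, Aurkb, Birc5, Foxm1, the 4 tested members of smallest p and the 4 of largest change. Aurka and Cenpa were added after their values were seen. From each division list up to 3 genes of smallest p could be named, and the 10 genes most like the mean of the members. Alternatives were other filters, other probe choices, normexp background subtraction, array centring, other variance models, array weights, order of deposit as a block, muscle, luminal and milk lists as covariates, tumours high in muscle left out, and each array left out in turn. The first 6 and the last 5 arrays alone were added after seeing the data.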

Additional observations from a re-analysis of the deposited data

Results flagged for a closer look

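In 78 groups of tumours, over 39 measures, 3 held a tumour set far from the others relative to the range of its group. Chance alone marks about 1 in 20 such groups. PyMT/SIRT6 tumour 4 had 7.34 for Tpx2, where the next highest PyMT/SIRT6 tumour had 7.27, a gap of 0.73 of the range on a dim probe. PyMT/SIRT6 tumour 5 had 8.43 for Bub1b, where the next lowest had 8.74, and the same tumour was lowest of all 11 for 7 of the 22 tested mitosis genes. PyMT tumour 5 had a mean of 11.33 over the skeletal muscle genes, where the next highest PyMT tumour had 8.42, and it was the lowest of all tumours in the mean of the mitosis genes.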

How the results depend on the processing

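Under all 29 alternatives, 0 tested mitosis genes passed limma's adjusted threshold in either direction, and the lowest adjusted p of a gene described tumour by tumour under the rule was 0.539, for Bub1b with array weights. Few features passed at all, at most 6 of 22640 with every probe tested. Without the tumours high in muscle, and in the first 6 or the last 5 arrays alone, 0 of 14726 features passed. A count of 0 in those fits therefore says nothing particular to mitosis genes. At an unadjusted p under 0.05, 2 of 22 genes were lower with order of deposit as a block (3.05% of all features), without PyMT tumour 6 (2.96%) and in the first 6 arrays alone (1.72%). By the same p, 1 gene was higher without the tumours high in muscle (1.7% of all features), and so was 1 of 40 member probes when every probe was tested (2.01%), a second, dim probe of Ndc80 at 0.06, where the probe used was at -0.13. Leaving out each array in turn, the median difference ran from -0.18 (without PyMT tumour 5) to -0.04 (without PyMT tumour 1), the difference of the means from -0.15 to -0.02 and the median correlation from 0.45 to 0.62. Under the other alternatives the median difference ran from -0.24 (first 6 arrays alone) to 0.01 (last 5 alone), and with each gene divided by its SD the means differed by -0.34 SD. The sign turned for 5 of the 11 such genes. Birc5, at 0.02, became -0.01 with the mean of its probes, 0.00 with the deposit block, -0.06 and -0.17 with the luminal and milk covariates, -0.28 without the tumours high in muscle and -0.11 in the first 6 arrays alone. Leaving out each array gave Birc5 from -0.11 to 0.15. Foxm1, also at 0.02, became 0.00 with the mean of its probes, -0.02 with array weights, -0.01 without the tumours high in muscle and -0.06 in the last 5 arrays alone. Leaving out each array gave Foxm1 from -0.04 to 0.06. In the last 5 arrays alone Cdk1 was at 0.13, Tpx2 at 0.05 and Kif11 at 0.00. Without PyMT tumour 1, Plk1 and Aurkb were at 0.00. Normexp with offsets of 16 and 50 put Tpx2 at -0.24 and -0.16. The milk covariate gave a median difference of -0.11. The cause was not tested. No paired analysis was possible because the replicate numbers follow accession order and pair no samples. Brightness limits the set: the probes of 8 mitosis genes fell below the limit, and Tpx2, Kif20a and Nuf2 lay just above it.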
